A study of Homo sapiens with 3 samples.

Results

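Actin is built into filaments that give cells their shape and, with myosin, their tension. Monomers are held in reserve by small sequestering peptides, filaments are coated by tropomyosins, and the smooth muscle types of these proteins are a mark of contractile, myofibroblast-type stroma. In bone marrow, stromal cells spread on filament bundles, whereas plasma cells are round and carry mainly a cortical actin shell. The genes described here are 10 symbols found in the count tables out of 43913 in all. They are the cytoplasmic actins ACTB and ACTG1, the contractile genes ACTA2, TAGLN, MYL9, TPM1, TPM2 and CALD1, and the thymosins TMSB4X and TMSB10. They were taken by symbol.

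The assay was Drop-seq, in which a droplet joins a cell to a barcoded bead and each captured RNA molecule gets a unique molecular identifier (UMI). There were 3 libraries, 1 each of MM.1S cells grown alone, HS-5 cells grown alone, and both lines after 4 h of coculture, with no further treatment. MM.1S is an established line of multiple myeloma, a plasma cell cancer, and HS-5 is an established stromal line from bone marrow, so each line stands for a single origin. The genes of the actin system are compared between the lines grown alone and, within each line, between coculture and monoculture. The libraries held 3994, 3865 and 3963 barcodes and 10433182, 6143448 and 3981392 UMIs, with medians of 2183, 949 and 789 UMIs per barcode. Between 39 and 76 barcodes of the coculture also occurred in a monoculture library, and 44 were common to the monocultures.

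After cells with under 200 detected genes were left out, 3947 MM.1S and 3732 HS-5 monoculture cells remained. Coculture cells were assigned to a line by 60 genes specific to MM.1S and 158 specific to HS-5, at least 50-fold apart between the monocultures, with the 10 genes and the pathway lists below left out of them. This gave 1646 MM.1S and 2100 HS-5 cells, and 110 cells of mixed identity were left out as likely doublets of both lines. MM.1S cells of the coculture were shallow, with a median of 669 UMIs against 2201 in monoculture, while HS-5 cells had 957 against 971.5. The UMIs of each group were summed and scaled to counts per 1000000 UMIs (CPM). Each condition has a single library and so no replicates, no test was made, and every interval is an exact 95% interval that covers counting error only.

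Plasma cell markers were present in MM.1S, with 9 of 9 at or above 10 CPM in both conditions, against 3 of 9 in HS-5. Of 12 stromal markers, 9 were at or above 10 CPM in HS-5 in both conditions. In MM.1S 3 of them were so in monoculture and 4 in coculture, among them FN1 at 2224 CPM. Smooth muscle markers were close to absent. Their summed level was 6.42 and 9.77 CPM in MM.1S and 102 and 65.2 CPM in HS-5. SMTN, the smoothelin gene, gave 89.9 and 54.6 CPM of the HS-5 sums and was the one marker of the list above 10 CPM, and DES, the muscle filament desmin, had no UMI in either coculture group.

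The coding starts of the cytoplasmic actins are shown because these nearly identical genes gave different responses. Both code for the main actins of non-muscle cells and share 1029 of 1128 coding bases (91.2%). Below are bases 1 to 60 of each coding sequence, 5′ to 3′, from GENCODE release 29, with the bases that differ between the genes in capitals. ACTB lies on chromosome 7, 5527147 to 5563784, and ACTG1 on chromosome 17, 81509971 to 81523847, both on the minus strand (GRCh38).
ACTB: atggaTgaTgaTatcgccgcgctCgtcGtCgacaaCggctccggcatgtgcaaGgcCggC
ACTG1: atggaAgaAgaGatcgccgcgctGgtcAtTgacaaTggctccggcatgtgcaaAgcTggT

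The thymosins bind actin monomers and keep them out of filaments. Their coding sequences are 135 bases each and are shown whole, again with the 37 differing bases in capitals, because TMSB4X differed between conditions far more than TMSB10. TMSB4X lies on chromosome X, 12975108 to 12977227, and TMSB10 on chromosome 2, 84905625 to 84906675, both on the plus strand.
TMSB4X: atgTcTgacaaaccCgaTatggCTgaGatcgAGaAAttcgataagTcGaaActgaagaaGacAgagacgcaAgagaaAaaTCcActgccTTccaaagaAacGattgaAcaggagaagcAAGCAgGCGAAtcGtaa
TMSB10: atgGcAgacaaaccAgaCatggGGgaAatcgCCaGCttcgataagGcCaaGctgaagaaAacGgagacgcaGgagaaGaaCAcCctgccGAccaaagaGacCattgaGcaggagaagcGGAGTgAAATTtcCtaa

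Many actin genes carry a CArG box, the motif bound by the serum response factor SRF. It is written as CC, 6 bases of A or T, and GG, and reads the same class of sequence on both strands. RefSeq promoters of GRCh38.p14 were at hand for 7 of the 10 genes (12 entries, none for ACTB, TAGLN or MYL9). In the 250 bases before the start, 1 of the 12 entries held a CArG box, that of ACTG1, against 1.16% of 35116 promoters. The ACTG1 promoter (chr17:81512800-81513049, minus strand) is printed with the box in capitals, 94 to 85 bases before the start.
ACTG1: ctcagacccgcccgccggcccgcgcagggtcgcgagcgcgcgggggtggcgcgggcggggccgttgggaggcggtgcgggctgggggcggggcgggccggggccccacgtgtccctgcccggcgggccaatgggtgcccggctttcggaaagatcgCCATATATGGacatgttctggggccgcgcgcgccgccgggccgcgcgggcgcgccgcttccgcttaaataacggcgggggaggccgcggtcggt

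The 10 genes took 0.683% of all UMIs in MM.1S monoculture, 0.716% in MM.1S cells of the coculture, 1.03% in HS-5 monoculture and 1.18% in HS-5 cells of the coculture. Between the monocultures, the contractile genes CALD1, TPM2, MYL9 and TPM1 differed far more than the cytoplasmic actins and thymosins. ACTA2 (7 UMIs in HS-5 and 4 in MM.1S) and TAGLN (2 and 3) were too low to compare. CALD1 was 127-fold higher in HS-5 (81.0 to 211), TPM2 115-fold (81.4 to 169), MYL9 106-fold (44.8 to 328) and TPM1 13.4-fold (12.1 to 14.8). The 5 MYL9 UMIs of MM.1S came from 1 cell, so its fold is less certain than its interval. ACTG1 was 2.29-fold and TMSB10 2.25-fold higher there. Summed over 6 genes, the contractile genes were at 1196 CPM in HS-5 and 47.9 CPM in MM.1S, a log2 difference of 4.61, and TPM1 held 437 of the 500 MM.1S UMIs. Among 8 members whose mean over the monocultures reached 10 CPM, 6 were at least 2-fold higher in HS-5, against 38.1% of 8734 genes, and 0 were at least 2-fold lower, against 15.3%. The remaining members were ACTB, which was 1.28-fold higher in HS-5, and TMSB4X, which was 1.26-fold lower there. Of the 6 higher in HS-5, MYL9, TPM2 and CALD1 were under 10 CPM in MM.1S. They passed the mean only through HS-5, so the filter set their direction.

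**Figure D1:**
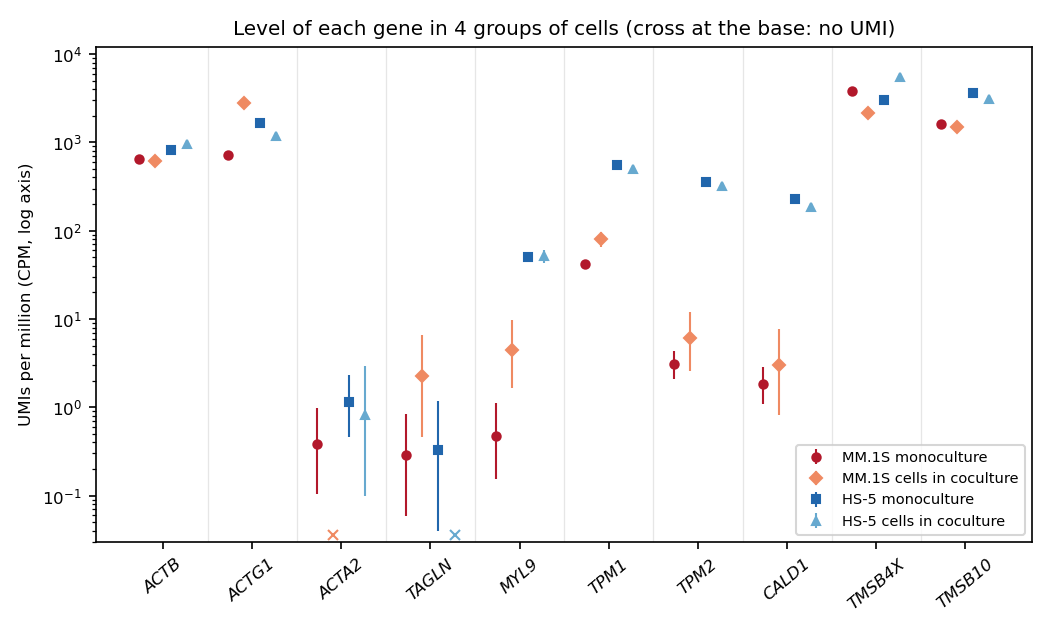
Level of each of the 10 genes (CPM on a log axis) in MM.1S monoculture, MM.1S cells in coculture, HS-5 monoculture and HS-5 cells in coculture, with exact 95% Poisson intervals and crosses where no UMI was counted. MYL9, TPM2 and CALD1 lie at or under 6.01 CPM in both MM.1S groups and between 50.6 and 353 CPM in both HS-5 groups, and ACTA2 and TAGLN lie at or under 2.25 CPM in all 4.

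Of the actins and thymosins, ACTG1 differed most between conditions in MM.1S, and it had the opposite direction in HS-5. It stood at 721 CPM in MM.1S monoculture (interval 704 to 737, 7517 UMIs) and at 2774 CPM in MM.1S cells of the coculture (2685 to 2865, 3692 UMIs). HS-5 cells held 1648 CPM (1616 to 1680) when alone and 1179 CPM (1137 to 1223) when cocultured. The MM.1S cells went from the lowest of the 4 groups to the highest, above HS-5 cells of the same library. The log2 ratio of coculture over monoculture, with a pseudocount of 1, was 1.94 in MM.1S (1.89 to 2.00, 3.85-fold) and -0.48 in HS-5 (-0.54 to -0.42). Of 7837 genes whose mean reached 10 CPM in MM.1S, 96.8% had a lower ratio than ACTG1.

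ACTB, the other cytoplasmic actin, differed less in the sums by total UMIs, and by how much depended on the setting. Its level was 649 CPM in MM.1S monoculture (634 to 665), 618 CPM in MM.1S cells of the coculture (577 to 662), 828 CPM in HS-5 monoculture (806 to 851) and 962 CPM in HS-5 cells of the coculture (923 to 1001). The intervals overlapped in MM.1S, where the log2 ratio was -0.07 (-0.18 to 0.03). It was -0.61 with edgeR's TMM factors, -0.56 with DESeq2 size factors and 0.05 with equal weight for each cell. In HS-5 the intervals did not overlap, and ACTB was 1.16-fold higher in coculture, a log2 ratio of 0.22 that became 0.54 with equal weight for each cell.

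Since both genes were counted in the same droplets, their ratio does not depend on the scaling. There were 1.11 ACTG1 UMIs per ACTB UMI in MM.1S monoculture and 4.49 in MM.1S cells of the coculture. In HS-5 the ratio went the other way, from 1.99 to 1.23. The MM.1S ratio in coculture was thus above that of the HS-5 cells in the same library. Summed, the cytoplasmic actins were at 1370 and 3393 CPM in MM.1S (log2 ratio 1.31) and at 2476 and 2141 CPM in HS-5 (-0.21). Reads can be split between these genes and their pseudogenes, but 10 ACTB and 16 ACTG1 copies in the tables held at most 1.22% of their parent's UMIs in any group, and with them added the ACTG1 ratio was 1.94 in MM.1S and -0.48 in HS-5.

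TMSB4X, the main actin-sequestering thymosin, also differed in opposite directions, the reverse of ACTG1. Its level was 3812 CPM in MM.1S monoculture (3775 to 3850) and 2162 CPM in MM.1S cells of the coculture (2084 to 2242). HS-5 cells held 3026 CPM (2983 to 3070) when alone and 5470 CPM (5378 to 5563) when cocultured. The log2 ratio was -0.82 in MM.1S (-0.87 to -0.76), 1.76-fold lower, and 0.85 in HS-5 (0.82 to 0.89), 1.81-fold higher. With equal weight for each HS-5 cell the log2 ratio was 1.58, and with cells of 200 to 2500 genes and under 5% mitochondrial UMIs it was 1.46. In HS-5, 97.5% of 8810 genes had a lower ratio, and in MM.1S 8.63% did.

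TMSB10 also binds monomers. It was at 1602 CPM (1578 to 1626) and 1508 CPM (1443 to 1576) in MM.1S, and at 3601 CPM (3554 to 3649) and 3087 CPM (3018 to 3157) in HS-5. Its log2 ratios were -0.09 in MM.1S and -0.22 in HS-5, and in MM.1S the value was -0.62 with TMM factors, -0.57 with DESeq2 size factors and 0.04 with equal weight for each cell. The UMIs of TMSB10 per TMSB4X UMI went from 0.420 to 0.698 in MM.1S and from 1.19 to 0.564 in HS-5. The sum of the thymosins was 5414 and 3670 CPM in MM.1S (log2 ratio -0.56) and 6627 and 8557 CPM in HS-5 (0.37).

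TMSB4X has 6 copies in the tables. The processed pseudogene TMSB4XP4, which matches 132 of the 135 coding bases, was higher in both lines, with log2 ratios of 1.71 in MM.1S (261 and 112 UMIs) and 1.46 in HS-5 (454 and 505 UMIs). Reads of parent and copy can be exchanged, so the level of each is uncertain. With all copies added to the parent, the TMSB4X ratio was -0.77 in MM.1S and 0.87 in HS-5.

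The contractile genes that define smooth muscle were at the limit of detection in every group. ACTA2, the smooth muscle alpha-actin, had 4, 0, 7 and 2 UMIs in MM.1S monoculture, MM.1S in coculture, HS-5 monoculture and HS-5 in coculture. TAGLN, the smooth muscle protein transgelin, had 3, 3, 2 and 0. No ratio can be read from these counts. A count of 0 among MM.1S cells of the coculture allows up to 2.25 CPM, and among HS-5 cells up to 1.21 CPM, counted as 3 UMIs. The upper ends of the exact intervals are 2.77 CPM and 1.49 CPM. ACTA2 overlaps STAMBPL1, FAS and ACTA2-AS1 on the other strand, and TAGLN overlaps PCSK7. All of these held few UMIs, at most 117 in a group, and how the counting used strand is not given in the sources used here.

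The other contractile genes were expressed by HS-5 cells and were close to their monoculture levels after coculture. MYL9, a regulatory light chain of myosin, had 50.6 CPM alone (45.2 to 56.6) and 51.4 CPM in coculture (42.9 to 61.2). TPM1, a tropomyosin that coats stress fibre filaments, was at 559 CPM (541 to 578) and 503 CPM (475 to 531). TPM2, the second tropomyosin here, was at 353 CPM (339 to 369) and 324 CPM (302 to 347), intervals that overlap, while that of the ratio did not reach 1 (0.845 to 0.995). CALD1, caldesmon, which links myosin and actin, was at 231 CPM (219 to 244) and 185 CPM (169 to 203). Their log2 ratios lay between -0.32 (CALD1) and 0.02 (MYL9), and the ratio of the summed contractile genes was -0.17 (-0.23 to -0.10). Among all 8810 genes in HS-5, the central 50% lay between -0.31 and 0.25. MYL9 had no settled sign, since 5 of 13 alternatives put it below 0.

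In MM.1S cells these genes were low in monoculture, at 0.479 CPM for MYL9 (5 UMIs), 3.07 CPM for TPM2 (32 UMIs), 1.82 CPM for CALD1 (19 UMIs) and 41.9 CPM for TPM1 (437 UMIs). In coculture they were at 4.51 CPM (6 UMIs), 6.01 CPM (8 UMIs), 3.01 CPM (4 UMIs) and 79.6 CPM (106 UMIs). All 4 were higher, TPM2 and CALD1 not after the subtraction described next, and only for MYL9 and TPM1 did the counting interval of the ratio lie above 1. The MYL9 ratio rests on 6 and 5 UMIs. Without thinning, 0.243% of MM.1S cells in coculture had a MYL9 UMI and 0.0253% in monoculture, which is 1 cell. The counting interval treats UMIs as independent, so for MYL9 it does not describe the MM.1S cells as a whole. TPM1 had a log2 ratio of 0.91 (0.61 to 1.24). The ratio of the sum was 0.98 (0.70 to 1.28).

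Free RNA of lysed HS-5 cells can enter droplets of MM.1S cells, so each level was set beside that of the HS-5-specific genes. These 158 genes, summed, were in MM.1S cells of the coculture at 1.94% of their level in HS-5 cells. TPM2 was at 1.85% (0.798 to 3.67) and CALD1 at 1.62% (0.440 to 4.18), within counting error of that share. MYL9 was at 8.77% (3.16 to 19.6) and TPM1 at 15.8% (12.9 to 19.3). The central 95% of the single HS-5-specific genes ran from 0 to 9.24%, which holds MYL9 and not TPM1. Those genes were chosen as at least 50-fold apart between the monocultures. TPM1 was 13.4-fold apart and at 41.9 CPM in MM.1S monoculture, so the band is no measure for it. After HS-5 RNA was subtracted, at 1.58% of the UMIs of an MM.1S cell, TPM2 was at 0.912 CPM and CALD1 at 0.0835 CPM, both below the monoculture, whereas TPM1 was still at 72.8 CPM and ACTG1 at 2798 CPM.

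Among members whose mean reached 10 CPM, 1 of 8 in HS-5 was at least 1.5-fold higher in coculture (TMSB4X) against 7.82% of all genes, and 0 of 8 were at least 1.5-fold lower against 9.95%. In MM.1S, 2 of 5 were at least 1.5-fold higher (ACTG1 and TPM1) against 33.6% of 7837 genes, and 1 of 5 at least 1.5-fold lower (TMSB4X) against 13.9%. The MM.1S counts depended on the scaling. With TMM factors ACTG1 (1.41) was past the fold upwards and TPM1 (0.38) was not, and TMSB4X (-1.35), TMSB10 (-0.62) and ACTB (-0.61) were past it downwards. The median gene had a log2 ratio of 0.24 in MM.1S by total UMIs and of -0.30 with edgeR's TMM factors. Relative to the median gene, ACTG1 was 1.70 higher on the log2 scale, TPM1 was 0.67 higher, and TMSB4X stood at -1.06.

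The cells themselves differed in how many carried each transcript. At 1000 UMIs per cell, drawn at random from each deeper cell, 3870 MM.1S and 1802 HS-5 monoculture cells and 379 MM.1S and 997 HS-5 coculture cells could be compared. ACTG1 was detected in 49.4% of MM.1S cells in monoculture (47.8 to 51.0%, exact Clopper-Pearson) and in 89.7% in coculture (86.2 to 92.6%), and in HS-5 in 76.7% and 65.0%. ACTB was detected in 45.1% and 41.2% of MM.1S cells and in 53.6% and 62.8% of HS-5 cells. The MM.1S coculture share rests on the deepest 379 of 1646 cells. At 500 UMIs per cell, which 1200 of the coculture cells reached, the ACTG1 shares in MM.1S were 28.7% and 70.25%. Without thinning, 74.0% and 79.0% of all MM.1S cells had an ACTG1 UMI, at unequal depths with medians of 2201 and 669 UMIs.

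TMSB4X was the least even of the members measured over cells. In HS-5 monoculture its variance over cells was 4.28 times its mean, where counting alone gives about 1, and 30.0% of cells had no UMI where a Poisson draw of the same mean would leave 9.89%. In HS-5 cells of the coculture the variance was 3.45 times the mean and 5.22% of cells had none. TMSB10 in the same HS-5 cells had 1.37 and 1.41, and ACTB 1.11 and 1.08. In MM.1S, TMSB4X had 2.10 in monoculture and 2.39 in coculture.

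MYL9 was detected in 4.83% of HS-5 monoculture cells, TPM1 in 39.7%, TPM2 in 32.2% and CALD1 in 20.8%, against 4.91%, 35.4%, 24.2% and 16.9% in coculture. In MM.1S monoculture the shares were 0.0258%, 4.29%, 0.362% and 0.207%. Whether the low MM.1S shares of MYL9, TPM2 and CALD1 are background or low expression was not tested. The summed contractile UMIs in HS-5 had a variance of 1.36 times the mean in monoculture and 1.23 in coculture. Over HS-5 monoculture cells the Pearson r was 0.037 for TPM1 with TPM2, 0.027 for TPM1 with CALD1 and 0.023 for TPM2 with CALD1. In counts this sparse, with a mean of 1.27 contractile UMIs per cell, these values neither show nor exclude cells that share the genes. MT-RNR2, COL1A1, THBS1 and RBM25 were among the genes most correlated with the contractile sum over HS-5 monoculture cells, all with r between 0.105 and 0.121 over 1802 cells from 1 library. In HS-5 cells of the coculture r was 0.057 for MT-RNR2, 0.114 for COL1A1, 0.086 for THBS1 and -0.0049 for RBM25.

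The TMSB4X difference in HS-5 moved with another property of the cells, the share of their UMIs from short mRNAs. TMSB4X and TMSB10 have short transcripts, with median lengths of 697.5 and 496 bases in GENCODE release 29. Protein-coding genes were placed in 4 equal groups by length. In HS-5 the group of up to 1654 bases had a median ratio (log2) of 0.18 and the longest group one of -0.18. In MM.1S the order was reversed, with -0.16 and 0.59. In HS-5 cells of at least 1000 UMIs, the short genes other than the members and TMSB4XP4 and TMSB10P1 took a median of 30.5% of UMIs in monoculture and 39.8% in coculture. In MM.1S the medians were 48.4% and 39.8%. Ribosomal protein genes, whose mRNAs are short, took 7.54% and 8.63% of UMIs in HS-5 and 18.8% and 11.996% in MM.1S. Over HS-5 monoculture cells this share of short mRNAs had a Pearson r of 0.69 with TMSB4X CPM, against -0.18 for TMSB10 and 0.21 for ACTB. In HS-5 cells of the coculture r was 0.38 for TMSB4X, -0.16 for TMSB10 and -0.018 for ACTB, and for TMSB4X in MM.1S it was 0.0031 in monoculture and 0.16 in coculture. Within each group all values come from the same library and the same cells.

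HS-5 cells of at least 1000 UMIs in both conditions were divided into 3 equal bins by that share. With boundaries at 30.5% and 36.6%, the TMSB4X ratio was not constant. It was 0.16 in the lowest bin (-0.29 to 0.58, 1264 and 1416 CPM, 910 and 23 cells). In the middle it was 0.39 (2819 and 3697 CPM, 705 and 228 cells) and in the highest -0.23 (7896 and 6736 CPM, 187 and 746 cells). None of these ratios reached the 0.85 of all cells, which include shallower ones, and the highest bin had the opposite sign. The summed contractile genes, at -0.17 over all cells, were at -1.25 in the lowest bin, 0.18 in the middle and 0.39 in the highest. ACTG1 was at -1.05 in the lowest bin (-1.64 to -0.51), -0.40 in the middle and 0.06 in the highest. So the HS-5 values of these genes depend on which cells are set side by side.

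In MM.1S the same division could be made for the lowest bin only (1049 and 367 cells), since the others held 11 and 1 coculture cells. There the ratio was 2.00 for ACTG1, -0.73 for TMSB4X, -0.34 for ACTB, -0.16 for TMSB10 and 1.01 for the contractile sum. This bin runs up to 46.1% and does not match the cells closely, since 95% of MM.1S monoculture cells of at least 1000 UMIs lay above 41.2% and the median coculture cell at 39.8%. ACTG1, of 1960 bases, had 96.6% of the genes in its length group below it in MM.1S, and TMSB4X had 95.1% of its group below it in HS-5. The part of the short mRNA share in the differences of either line was not tested, and library and condition cannot be told apart.

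The wider actin pathway was read from 11 lists of 140 gene symbols, 138 of them found in the data. In HS-5, 111 of them reached a mean of 10 CPM, of which 6 were at least 1.5-fold higher in coculture and 15 lower, with a median log2 ratio of -0.05, against 7.82% higher and 9.95% lower of all genes. In MM.1S, of 93, 33 were higher and 13 lower, with a median of 0.31, against 33.6% and 13.9% of all genes, so that the lists lay near the background. The counts of single lists below, by total UMIs, are to be read against the same shares. The MM.1S split turned over with the scaling, to 18 higher and 30 lower with TMM factors and 20 and 27 with DESeq2 size factors. The median of all genes in MM.1S moved too, to -0.30 and -0.25, so the turnover is not particular to these lists. For TMM and DESeq2 counts the matching shares of all genes are not given here. In HS-5 TMM factors gave 3 higher and 19 lower. In MM.1S the same factors gave 2 higher and 6 lower of the monomer-binding genes, 4 and 6 of the Arp2/3 list, 0 and 3 of the capping genes, 1 and 4 of the myosin list, 4 and 0 of the crosslinkers, 1 and 3 of the focal adhesion genes and 1 and 5 of the leukocyte regulators. A gene under 10 CPM in monoculture passed the minimum only through its coculture level, which holds for SRF, LIMA1, PDLIM7, ACTN1, FMNL1 and ZYX in MM.1S and for TMSB15A in HS-5. The list medians stand beside medians over all genes of -0.03 in HS-5 and 0.24 in MM.1S.

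**Figure D2:**
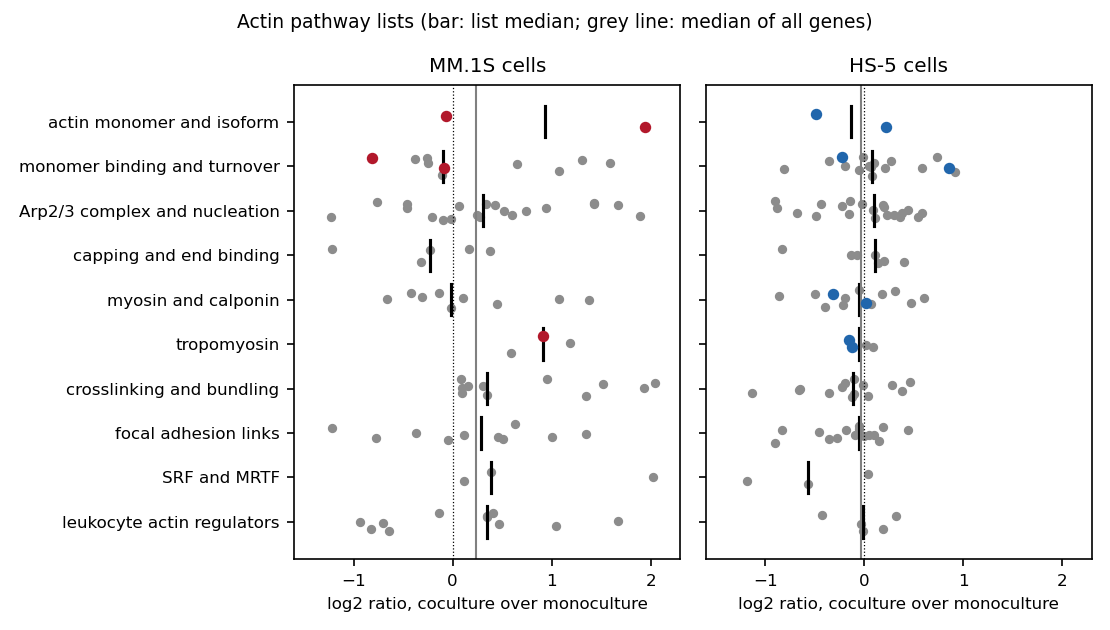
Log2 ratio of coculture over monoculture for every gene of 10 of the actin pathway lists whose mean reached 10 CPM, for each line; coloured points are the members, bars are list medians and the grey line is the median of all genes. By total UMIs all 11 crosslinking genes lie above 0 in MM.1S, from 0.09 to 2.04, against 62.0% of all 7837 genes (5 of 11 with TMM factors). Among the 11, LIMA1, PDLIM7 and ACTN1 passed the minimum only through coculture. Most lists straddle 0 in HS-5.

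SRF, whose targets include ACTB, ACTG1 and the contractile genes, was at 4.79 CPM in MM.1S monoculture (50 UMIs) and 22.5 CPM in coculture (30 UMIs), a log2 ratio of 2.02 (1.55 with TMM factors). In HS-5 it was at 36.3 CPM (223 UMIs) and 15.4 CPM (38 UMIs), at -1.19. By total UMIs ACTG1 was at 1.94 in MM.1S and -0.48 in HS-5, and the contractile sum at 0.98 and -0.17. ACTB was at -0.07 in MM.1S, with an interval of -0.18 to 0.03, and at 0.22 in HS-5. Any part of SRF in these values was not tested. The SRF coactivators gave the other ends of the list, MKL2 at 0.11 in MM.1S (-0.39 with TMM factors) and MKL1 at 0.04 in HS-5 (-0.06). Of the 7 listed symbols 5 were found in the data, and 3 passed 10 CPM in each line. The symbols not found, MRTFA and MRTFB, are other names of MKL1 and MKL2.

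Of the genes that turn over or bind monomers, 4 of 10 in MM.1S were at least 1.5-fold higher and 1 lower. WDR1, a cofactor of cofilin in filament disassembly, was the highest, at 30.3 and 93.2 CPM (1.59), and TMSB4X the lowest. In HS-5, 3 of 16 were higher and 1 lower. TMSB15A, another thymosin, was at 8.95 and 17.8 CPM (0.92), and CFL1, the cofilin that severs filaments, at 1100 and 628 CPM (-0.81).

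In the list of the Arp2/3 complex, which starts branched filaments, and of other nucleation genes such as formins, 7 of 20 genes were higher and 2 lower in MM.1S. They ran from ABI1, a subunit of the WAVE complex, at 107 and 45.1 CPM (-1.23), to the formin FMNL1 at 8.82 and 35.3 CPM (1.89). In HS-5, 1 of 20 was higher and 3 lower, from ARPC4 at 75.1 and 39.7 CPM (-0.90) to ARPC5 at 366 and 549 CPM (0.59), both subunits of the complex. Among capping and end-binding genes 0 of 5 in MM.1S were higher, with VASP, which extends filament ends, at 36.2 and 15.0 CPM (-1.22) and TMOD3, a pointed-end cap, at 129 and 168 CPM (0.38, and -0.15 with TMM factors). In HS-5 VASP was also the lowest, at 33.2 and 18.2 CPM (-0.83), and TMOD3 the highest, at 132 and 175 CPM (0.41).

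All 3 tropomyosins measured in MM.1S were at least 1.5-fold higher in coculture by total UMIs, and all 3 kept a ratio above 0 under the scalings tried. TPM4 was at 120 and 274 CPM (1.19) and TPM3 at 522 and 784 CPM (0.59) with TPM1 between them. With TMM factors TPM4 was at 0.65, TPM1 at 0.38 and TPM3 at 0.05, so that 1 of the 3 passed the fold. In HS-5 the 4 tropomyosins lay between -0.15 (TPM1) and 0.09 (TPM4, at 594 and 632 CPM), and with TMM factors TPM4 was at -0.02. The myosin and calponin list in MM.1S had 2 of 9 genes higher and 1 lower and ran from CNN2, a calponin, at 23.1 and 14.3 CPM (-0.66), to MYH9, the heavy chain of non-muscle myosin, at 43.6 and 115 CPM (1.38). In HS-5, with 1 of 13 higher and 1 lower, it ran from TAGLN2 at 417 and 229 CPM (-0.86) to CNN2 at 14.3 and 22.3 CPM (0.60).

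Of the crosslinking and bundling genes, 5 of 11 were at least 1.5-fold higher in MM.1S and 0 lower, and 3 of these 5 (LIMA1, PDLIM7 and ACTN1) passed the minimum only through coculture. These counts are without subtraction of free HS-5 RNA. ACTN1 was at 9.97 and 20.3 CPM in MM.1S and at 522 CPM in HS-5 cells of the coculture. LIMA1, an actin-bundling LIM protein, was at 4.89 and 23.3 CPM (2.04), from 51 and 31 UMIs, and PDLIM1 was the lowest at 32.5 and 34.6 CPM (0.09, and -0.44 with TMM factors). In HS-5, 3 of 14 were lower and 0 higher, from FLNC, a filamin, at 68.7 and 30.8 CPM (-1.13), to LASP1 at 15.6 and 21.9 CPM (0.46). Of the focal adhesion genes, 3 of 10 were higher and 2 lower in MM.1S, and 0 of 16 higher and 2 lower in HS-5. ZYX, the focal adhesion protein zyxin, was the highest of its list in MM.1S, at 7.38 and 20.3 CPM (1.34), and the lowest in HS-5, at 68.2 and 36.02 CPM (-0.90). The highest focal adhesion gene in HS-5 was ILK, integrin-linked kinase, at 49.7 and 68.0 CPM (0.45). VASP, which is also in this list, was its lowest member in MM.1S.

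Of the leukocyte actin regulators, 2 of 11 were higher and 4 lower in MM.1S, from CORO1A, a coronin, at 100 and 51.8 CPM (-0.94), to ARPC1B, a subunit of Arp2/3, at 114 and 365 CPM (1.67). In HS-5 none of the 5 measured passed the fold in either direction, with CORO1C at 226 and 168 CPM (-0.43) and HCLS1 at 14.3 and 18.2 CPM (0.33).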

How the data were processed

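Single cells of MM.1S, HS-5 and their coculture were profiled by Drop-seq in 3 libraries. The authors deposited whole-number UMI counts per gene symbol and cell barcode, without normalization. The submitters' processing notes name Cell Ranger 3.0.2, UMI-tools 1.0.0, STAR 2.5.3a, featureCounts 1.6.4, SAMtools 1.9 and GRCh38, with no role or order, and the paper names Seurat for its own analyses. Counting by gene can divide reads among near-identical copies, and capture by poly-T beads counts 1 tag per molecule, so levels were compared between groups of cells, not between genes.

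Barcodes with 200 or more detected genes entered the analysis, and their UMIs were summed per line and library, scaled to CPM, and compared as log2 ratios with a pseudocount of 1. A gene missing from a table was read as 0. Line-specific genes had at least 50 CPM and a 50-fold difference between the monocultures. Cells of the coculture were assigned where HS-5 genes made up under 0.2 or over 0.8 of their line-specific UMIs, and doublets within a line were not removed. Depth limits the MM.1S cells of the coculture most: 3 counts are worth 2.25 CPM there and 0.288 CPM in MM.1S monoculture. Intervals are exact Poisson, exact conditional binomial for ratios (without the pseudocount, so that a low gene's ratio can lie outside its interval) and Clopper-Pearson for shares. UMIs count molecules, but intervals cover counting error only.

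The genes named are all members, the highest and lowest gene of each list in each line (mean of at least 10 CPM), and the 5 genes most correlated with the contractile sum. The genes of 1 list and 1 further gene under this rule are not reported here. The members and the lists were chosen with earlier results of these data known, and the division by short mRNAs and the omission of shared barcodes were added after the data were seen. The steps were tested on simulated data. Python 3.11.15, numpy 2.4.6, scipy 1.17.1, R 4.3.3, edgeR 4.0.16 and DESeq2 1.42.0 (both for scaling factors alone) were used. The alternatives were other limits on cells, scalings, weights, pseudocounts, doublet limits, line-specific genes and subtraction of free RNA.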

Additional observations from a re-analysis of the deposited data

Results flagged for a closer look

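Several values had opposite signs in the lines, each with a counting interval that did not reach 0. ACTG1 was at 1.94 in MM.1S and -0.48 in HS-5 (log2 ratio of coculture over monoculture). TMSB4X was at -0.82 in MM.1S and 0.85 in HS-5. TPM1 was at 0.91 in MM.1S and -0.15 in HS-5. Of the sums, the cytoplasmic actins were at 1.31 and -0.21, the contractile genes at 0.98 and -0.17, and the thymosins at -0.56 and 0.37, MM.1S first. The sums do not speak for each gene in them. ACTB was at -0.07 and 0.22, and TMSB10 at -0.09 and -0.22. TPM1 held 106 of the 127 contractile UMIs of MM.1S cells in coculture, where TPM2 and CALD1 were below monoculture after subtraction of free RNA. With 1 library per condition the differences between the lines were not tested. The coculture's cells of both lines come from the same library. The opposite signs depend on the cells compared in HS-5. In the bin with the highest share of short mRNAs TMSB4X was at -0.23, ACTG1 at 0.06, the contractile genes at 0.39, the actins at 0.01 and the thymosins at -0.13, and in the middle bin the contractile genes were at 0.18.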

How the results depend on the processing

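Of 16 member ratios under 13 alternatives, 11 kept 1 sign throughout, among them ACTG1 (1.41 to 1.98 in MM.1S, -0.62 to -0.47 in HS-5) and TMSB4X (-1.35 to -0.78 in MM.1S, 0.75 to 1.58 in HS-5). The 5 that did not were MYL9 in HS-5 and ACTB, TPM2, CALD1 and TMSB10 in MM.1S. In MM.1S ACTB ran from -0.61 (TMM) to 0.05 and TMSB10 from -0.62 (TMM) to 0.04. TMSB10 in MM.1S was at 0.0417 with equal weight per cell, ACTB at 0.05 there and 0.03 with cells of 200 to 2500 genes and under 5% mitochondrial UMIs. With free RNA subtracted TPM2 was at -1.09 and CALD1 at -1.38 in MM.1S, and with cells of at least 500 genes CALD1 was at -0.41. MYL9 in HS-5 was at -0.18, -0.12, -0.09 and -0.02, and below 0 also with DESeq2 size factors.

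With cells of 200 to 2500 genes and under 5% mitochondrial UMIs, the HS-5 sums were -0.33 (contractile), -0.26 (actins) and 0.51 (thymosins), the MM.1S thymosins -0.61, and 12 list genes were higher in HS-5. With equal weight per cell the HS-5 sums were -0.32, -0.15 and 0.51, the MM.1S actins 1.37 and thymosins -0.60, the contractile difference between the monocultures 4.82 (log2; 4.61 as reported), and 11 list genes were higher in HS-5. TMM factors gave -0.28, -0.32 and 0.26 in HS-5, 0.45, 0.77 and -1.10 in MM.1S, 4.27 between the monocultures, 3 list genes higher in HS-5, and 18 higher and 30 lower in MM.1S. DESeq2 size factors gave 0.34 for the HS-5 thymosins, 0.50, 0.82 and -1.05 in MM.1S, 4.15 between the monocultures, and 20 higher and 27 lower list genes in MM.1S. Totals without mitochondrial and ribosomal protein genes gave 4.35, with 1.13 for the MM.1S actins and -0.73 for the thymosins, and a pseudocount of 5 gave 4.50. A minimum of 50 CPM left 19 higher and 6 lower list genes in MM.1S, and no minimum gave 12 higher in HS-5 and 20 lower in MM.1S. In 3 bins of the short mRNA share, chosen after seeing the data, the HS-5 contractile sum was -1.25, 0.18 and 0.39, the actins -1.06 in the lowest and 0.00557 in the highest, the thymosins -0.54, 0.20 and -0.13, and the MM.1S actins 1.24 in the lowest. The cause of these shifts was not tested. List counts under these alternatives stand without the matching shares of all genes.

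No paired analysis was possible because each condition has 1 library. For the same reason no library was left out in turn. Depth limits ACTA2 and TAGLN in every group and MYL9, TPM2 and CALD1 in MM.1S.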
